A study of Mus musculus with 4 samples.

Results

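Regional homeobox factors are transcription factors that give cells of the body axis and the brain their positional identity. The genes described here are those of the Hox, Lhx, Pax, Nkx, Irx, Pou, Dlx, Meis, Pbx, Gbx and Barhl families and of the sine oculis family (Six3, Six4 and their relatives) together with Gata2 and Gata3, chosen by gene symbol from the annotation of the array, and they leave out the factors that are known to specify midbrain dopamine neurons. In all, 103 of the 18193 genes with a single symbol on the array met this rule, in 13 families, through 170 probe sets. Of several probe sets for a gene, the one brightest on average stands for it. Gata2 and Gata3 are zinc finger proteins and not homeobox genes. The name pattern also takes in Lhx1os and Pax6os1, opposite-strand transcripts named after Lhx1 and Pax6.

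TRAP (Translating Ribosome Affinity Purification) RNA and input RNA of the midbrain were compared in the Slc6a3 JD1640 TRAP line, 1 mouse line in which a modified Slc6a3 BAC directs the ribosomal protein fusion eGFP/RPL10A to cells that use the promoter of the dopamine transporter gene. The TRAP fraction is RNA bound to the tagged ribosomes (replicates 2 and 4), and the input fraction is RNA of the whole dissection, labelled unbound (total) by the submitter (replicates 1 and 2). Each of the 4 arrays came from a pool of 5 adult mice of both sexes, and all carried the transgene on a mixed FVB and C57BL6/j background. All midbrains were dissected with cycloheximide, which holds ribosomes on mRNA. The fractions have only replicate number 2 in common. Input was taken alongside TRAP for every replicate, so the arrays with this number may come from the same mice, which the labels do not state.

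Hox genes mark position along the hindbrain and spinal cord, where neighbouring genes of a cluster are used at successive levels. Lhx, Nkx, Pax, Dlx, Irx, Gata and sine oculis factors divide the forebrain, midbrain and hindbrain into domains and fix the transmitter identity of the neurons born there. Pbx and Meis proteins belong to the TALE class of homeodomain proteins and serve as DNA-binding partners of Hox and other homeodomain factors, and Pou class III factors are used widely in neurons and glia.

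Levels are given in arbitrary expression units, 2 raised to the deposited log2 value, and a gene was taken as above background where both arrays of TRAP or both arrays of input reached 50 units. Differences between TRAP and input were tested with limma over 45037 probe sets, and a gene passed at a Benjamini-Hochberg adjusted p under 0.05. A log2 difference is given as TRAP minus input ± its standard error from the fit. Where both arrays of a fraction were under 50 units, the fold is a bound against 50 units. The test takes the 4 arrays as independent, and a p-value weighs the fractions against the spread between the 2 arrays of each.

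The label check of the fractions went the way of the design. Th, which catalyses the committed step of dopamine synthesis, was at 16613 and 20947 units in TRAP, against 326 and 386 units in input, and all 8 dopamine neuron markers listed were higher in TRAP. All 9 oligodendrocyte markers above background and all 9 astrocyte markers had negative log2 fold changes, with medians of -1.30 and -1.79, and 6 of 7 GABAergic neuron markers did too, with a median of -1.05. Signal of these markers was still measured in TRAP, and its source was not tested. The summed level of the GABAergic markers was 9545 and 4262 units in TRAP and 16572 and 9633 units in input. That of the oligodendrocyte markers was 83595 and 36241 units in TRAP and 96528 and 104592 units in input.

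Most regional factors were not measured above background in the adult midbrain. Only 27 of the 103 (26.2%) passed, against 55.0% of all 18193 genes. Of the other 76, 73 were under 50 units on every array. The remaining 3, named after their values were seen, are Hoxb3, Hoxc4 and Lhx6, which reached it on 1 input array each. Values of the 76 lay between 4.58 and 146 units, and 43 of them held identical values on both arrays of TRAP and on both arrays of input, so no fold is given for them. No other probe set of the 76 was above background. The families rarely measured included Barhl (0 of 2 above background), Gbx (0 of 2) and nearly all of Hox (2 of 33), Nkx (2 of 12), Pax (1 of 9) and Dlx (1 of 6). In the other families 3 of 3 Meis, 2 of 3 Pbx, 5 of 11 Pou, 4 of 6 Irx, 3 of 9 Lhx, 2 of 5 sine oculis and both Gata genes were above background, and differences between families were not tested.

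**Figure D1:**
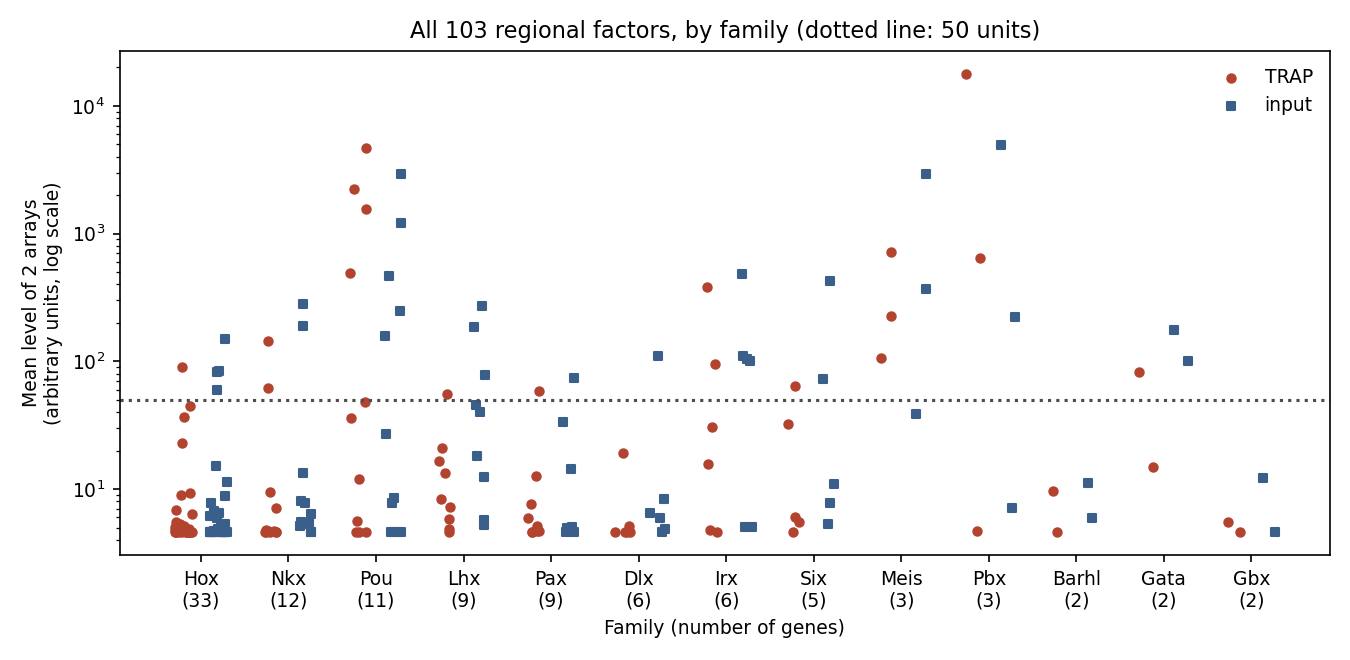
Mean level of the 2 TRAP arrays (red circles) and the 2 input arrays (blue squares) for all 103 regional factors by family, in arbitrary units on a log scale, with 50 units dotted. The points of 76 genes did not meet the background rule, and all but 2 of the 33 Hox genes are among them.

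Among the 27 genes above background, 3 were higher in TRAP (Pou3f1, Pbx3 and Meis3) and 3 were lower (Irx1, Irx5 and Lhx2) at an adjusted p under 0.05 from limma. That is 11.1% in each direction, beside 18.7% of all 10014 genes above background that were higher, 6.87% that were lower and 25.5% in either direction. The median log2 fold change of the 27 was -1.28, beside 0.44 over all genes above background, and 19 of them had a negative value (70.4%, beside 34.2% of all genes). With levels under 50 units raised to 50 the median was -0.71. The background rule weighs on these values. Of the 27, 14 (51.9%) met it through input alone, with 7 under 50 units on both TRAP arrays and 7 on 1 of them, and all 14 had negative log2 fold changes. Only 1 (Meis3) met it through TRAP alone, beside 7.22% of all genes above background through input alone and 7.77% through TRAP alone. A gene that passes through 1 fraction alone tends to be higher there by the rule itself, so the median and the share of negative values are descriptions. In whole-fraction RNA, fewer cells of a type and less RNA per cell cannot be told apart. When each array was centred on its bright probe sets, which moved the median of all probe sets above background by -0.41, 5 of the 27 were higher and 8 lower, and over all probe sets above background 3745 were higher and 3867 lower, beside 3213 and 1559 without centring.

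The arrays of the fractions were apart in more genes than passed the test. In 7 of the 27 genes (25.9%) both TRAP arrays lay above both input arrays, and in 15 (55.6%) both lay below, beside 52.3% and 23.6% of all genes above background (75.9% in either direction). In the other 5 genes the arrays overlapped. The background rule weighs on these shares as well, since 14 of the 27 met it through input alone, so they are descriptions. At an unadjusted p under 0.05 in the limma fit, 6 of the 27 were higher and 4 lower, beside 27.8% and 10.8% of all genes above background.

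**Figure D2:**
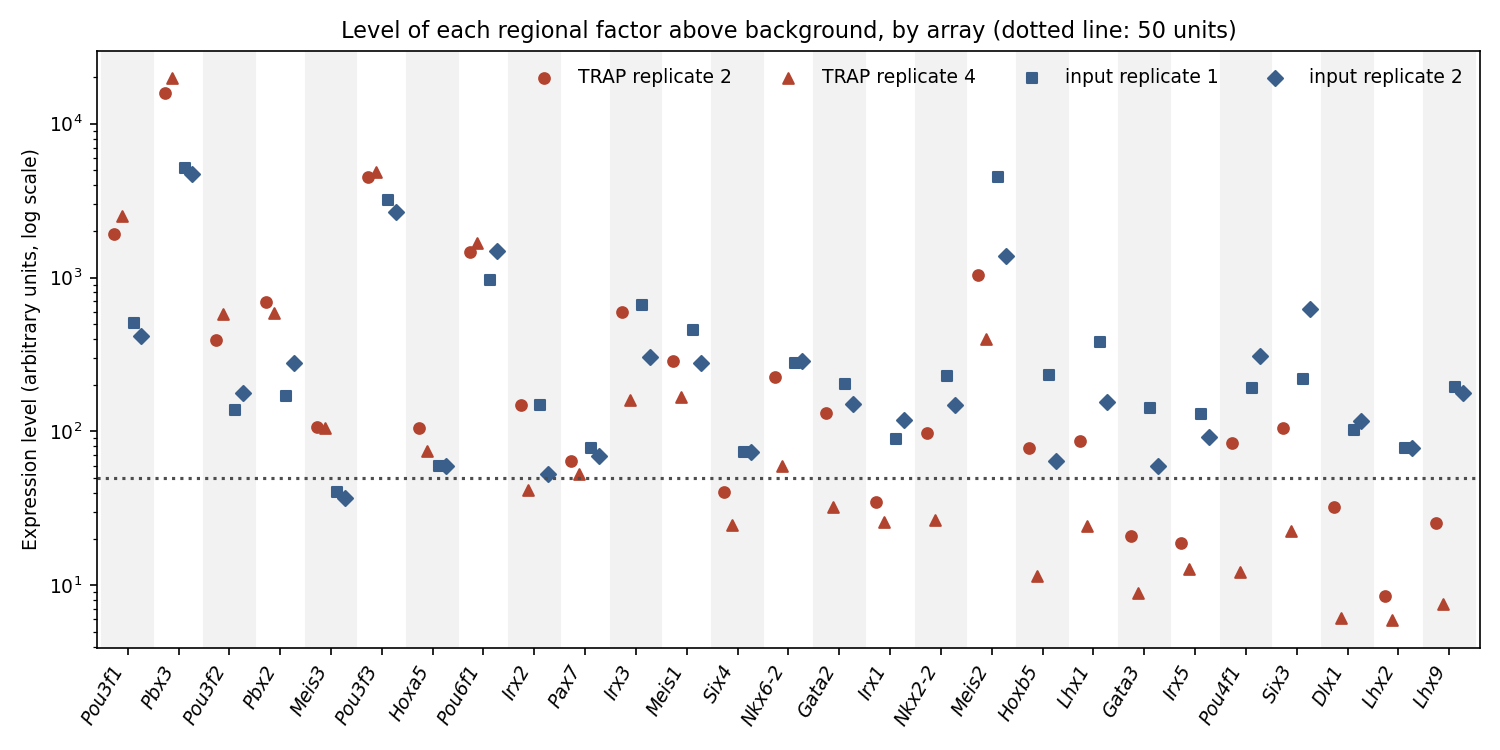
Level of each of the 27 regional factors above background on the 4 arrays, in arbitrary units on a log scale, ordered by log2 fold change, with red symbols for TRAP, blue for input and 50 units dotted. For 15 genes both red symbols lie under both blue ones, and for 7 they lie above them.

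The start regions of these genes share a sequence feature that the choice by name did not use. RefSeq promoter windows on GRCm38.p6, from 250 bases before to 50 bases after a start site, matched 22 of the 27 genes, in 25 windows. Their median was 24 CG dinucleotides in 300 bases and 66.7% G or C, beside 7 and 52.7% over all 32851 windows of the table, which hold genes of every kind. At least 10 CG dinucleotides stood in 24 of the 25 windows, beside 43.5% of all windows, a count chosen after the values were seen. To show this, the windows of a gene higher in TRAP (Meis3, chr7:16175145-16175444, plus strand, 21 CG), a gene lower in TRAP (Lhx2, chr2:38339031-38339330, plus strand, 34 CG) and the single window with fewer than 10 (Lhx9, chr1:138842395-138842694, minus strand, 6 CG) are given 5′ to 3′ with each CG in capitals. The windows of Meis3 and Lhx9 lie inside their genes (chr7:16174012-16186510 and chr1:138825186-138848839), so neither covers the outermost start.
Meis3: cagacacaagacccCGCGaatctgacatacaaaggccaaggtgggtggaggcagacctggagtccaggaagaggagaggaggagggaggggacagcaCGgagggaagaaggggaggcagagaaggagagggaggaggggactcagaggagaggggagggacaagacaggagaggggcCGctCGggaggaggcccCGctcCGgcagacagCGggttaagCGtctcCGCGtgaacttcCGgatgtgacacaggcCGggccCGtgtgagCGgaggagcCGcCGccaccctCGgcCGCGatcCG
Lhx2: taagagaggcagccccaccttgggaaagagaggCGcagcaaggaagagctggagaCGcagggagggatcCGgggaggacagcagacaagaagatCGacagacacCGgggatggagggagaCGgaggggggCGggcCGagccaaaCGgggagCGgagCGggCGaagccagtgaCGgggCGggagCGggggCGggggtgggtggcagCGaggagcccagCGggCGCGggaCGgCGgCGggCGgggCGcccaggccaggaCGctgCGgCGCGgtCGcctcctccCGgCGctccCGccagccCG
Lhx9: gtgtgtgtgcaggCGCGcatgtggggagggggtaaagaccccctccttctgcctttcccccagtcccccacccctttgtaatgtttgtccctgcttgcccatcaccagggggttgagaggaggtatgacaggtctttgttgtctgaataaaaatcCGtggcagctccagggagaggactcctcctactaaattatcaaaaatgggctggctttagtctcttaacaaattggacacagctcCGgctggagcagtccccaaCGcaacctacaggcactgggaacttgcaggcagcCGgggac

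Of the 6 genes that passed the test, Meis3 and Lhx2 had a window, and the windows of Pbx3, Pou3f1, Irx1, Irx5 and, among the others, Hoxb5 were not used here. Searched on both strands, with none of the motifs contained in another, the octamer ATGCAAAT, the homeodomain core TAATTA and the Pbx site TGATTGAT were in no window of the 22 genes, and they are in 1.74%, 5.29% and 0.746% of all windows. The Meis site TGACAG was in windows of 5 genes (Lhx1, Lhx9, Pou3f3, Pou4f1 and Six3), beside 19.2% of all windows, and the GATA site AGATAA in 1 (Nkx6-2), beside 11.2%. These are matches of letters only.

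The TALE partners Pbx2, Pbx3 and Meis3 had higher values in TRAP. Pbx3 (Entrez gene 18516) was at 15869 and 19855 units in TRAP, against 5139 and 4701 units in input. All TRAP values were above all input values, as in 52.3% of all genes above background. The mean was 17862 ± 2819 units in TRAP and 4920 ± 310 units in input (SD, n = 2 each). Its log2 fold change was 1.85 ± 0.16 (limma adjusted p = 0.0134), or 3.61-fold. A second probe set of Pbx3 read 671 and 1169 units in TRAP, against 168 and 146 units in input (2.50 ± 0.38 log2 units, limma adjusted p = 0.0374).

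Meis3 (Entrez gene 17537), a Pbx-binding factor known from hindbrain patterning in frog and fish embryos, was at 107 and 105 units in TRAP, against 40.3 and 37.1 units in input, where both arrays were below background. The rise was at least 2.12-fold (1.45 ± 0.06 log2 units on the deposited values, limma adjusted p = 0.00289). Pbx2 read 691 and 589 units in TRAP, against 169 and 278 units in input. Both TRAP arrays lay above both input arrays, as in 52.3% of all genes above background. The log2 fold change of Pbx2, 1.56 (standard error 0.35), missed the threshold (limma adjusted p = 0.0712). The same sign was found on all 3 Pbx2 probe sets above background, with log2 fold changes of 0.69 and 1.32 on the other ones. Pbx4 was not above background.

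Meis1 and Meis2, the relatives of Meis3, had negative log2 fold changes that missed the threshold. Meis2, which marks striatal and midbrain tectal neurons in development, was at 1044 and 401 units in TRAP, against 4516 and 1380 units in input. Its log2 fold change was -1.95 with a standard error of 1.02 (limma adjusted p = 0.227), since the pools of each fraction differed from each other by more than 2-fold. Both other Meis2 probe sets above background were negative as well (-0.87 and -1.42). Meis1 was at 285 and 167 units in TRAP, against 458 and 278 units in input, and the fractions overlapped (-0.71 ± 0.49 log2 units, limma adjusted p = 0.319). A difference between Meis3 and its relatives was not tested.

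Pou class III factors, which bind octamer-like sites as neurons and glia mature, had positive log2 fold changes in all 3 members above background, and Pou3f1 passed the test. Over all genes above background 34.2% had negative values, and the median was 0.44. Pou3f1 (Oct6, Entrez gene 18991) was at 1922 and 2508 units in TRAP, against 508 and 418 units in input. Its means were 2215 ± 414 units in TRAP and 463 ± 63.5 units in input (SD, n = 2 each), a log2 fold change of 2.25 ± 0.22 (limma adjusted p = 0.0166), or 4.76-fold. On the other Pou3f1 probe set TRAP was at 349 and 400 units and input at 39.2 units on both arrays, at least 7.47-fold higher (limma adjusted p = 0.00148). Both probe sets, read on the same arrays, placed every TRAP array above every input array. That order held for 52.3% of all genes above background.

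Pou3f2 (Brn2), a factor of neurogenesis, was at 395 and 584 units in TRAP, against 138 and 177 units in input. It missed the threshold on this probe set (1.62 ± 0.31 log2 units, limma adjusted p = 0.0549). It passed on another one, where TRAP was at 86.2 and 191 units and input at 15.0 units on both arrays (at least 2.57-fold higher, limma adjusted p = 0.0456). On the third Pou3f2 probe set the log2 fold change was 1.16 (limma adjusted p = 0.103). Pou3f3 (Brn1), the close paralog of Pou3f2, was at 4522 and 4877 units in TRAP, against 3193 and 2672 units in input. Its log2 fold change of 0.69 (standard error 0.13) missed the threshold narrowly (limma adjusted p = 0.0535). Under the alternative settings the log2 fold change of Pou3f3 ran from 0.18 to 0.81. Pou3f4 was not above background, with 39.9 and 32.0 units in TRAP and 11.8 and 42.3 units in input.

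The other Pou genes above background, Pou6f1 and Pou4f1, missed the threshold. Pou6f1 was at 1457 and 1670 units in TRAP, against 960 and 1478 units in input, the fractions overlapped, and its log2 fold change of 0.39 (limma adjusted p = 0.365) turned negative after quantile normalization or centring. Pou4f1 (Brn3a), a marker of medial habenula and red nucleus neurons, was at 84.1 and 12.3 units in TRAP, against 190 and 308 units in input. Both TRAP values were under both input values, yet the spread between the TRAP pools left a standard error of 1.33 on a log2 fold change of -2.91 (limma adjusted p = 0.187). Pou4f1 met the background rule through input alone. Pou2f2, Pou2f3, Pou4f3, Pou5f1 and Pou5f2 were under 50 units on every array.

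**Figure D3:**
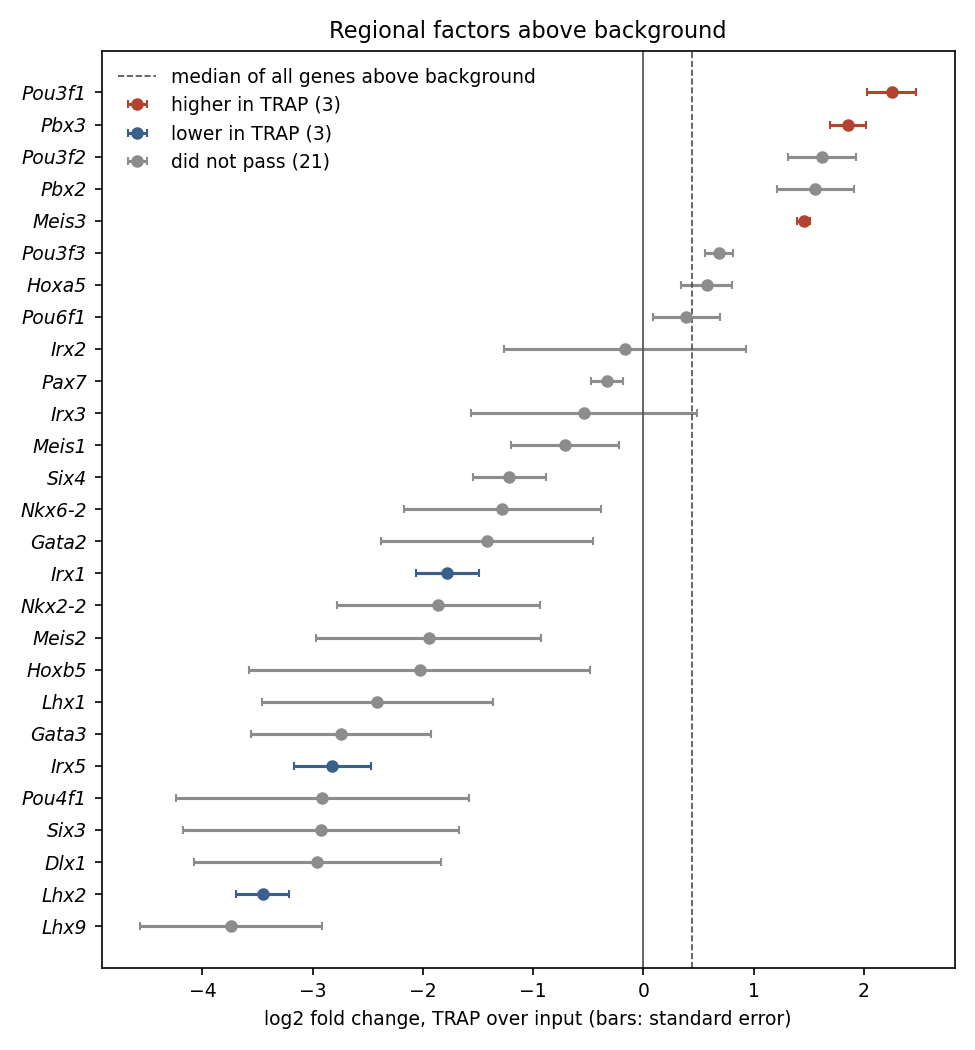
TRAP over input as a log2 fold change, with standard error bars, for the 27 regional factors above background, with genes higher in TRAP in red, lower in blue and those that missed the threshold in grey. The dashed line is the median of all genes above background (0.44), and the points run from 2.25 for Pou3f1 to -3.74 for Lhx9.

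The 3 Lhx genes above background were lower in TRAP or had lower values there. They are LIM homeodomain factors, which pair with the cofactor Ldb1 to fix neuronal subtype. Lmx1b, a LIM homeodomain factor counted here among the dopamine lineage factors, was higher in TRAP. It was at 785 and 1053 units there, against 57.3 and 80.1 units in input (limma adjusted p = 0.0113). Lhx2 (Entrez gene 16870), a factor of forebrain and thalamic patterning whose CG-rich window is printed beside that of Meis3, was at 8.48 and 5.91 units in TRAP, against 77.5 units on both input arrays. The fall was at least 1.55-fold (-3.45 ± 0.24 log2 units on the deposited values, limma adjusted p = 0.00887), with no spread between the input arrays. Lhx9, a factor of thalamic and pretectal neurons, was at 25.6 and 7.52 units in TRAP, against 195 and 177 units in input, at least 3.71-fold lower, and missed the threshold on this probe set (limma adjusted p = 0.0689). It passed on a second probe set, with 9.31 units on both TRAP arrays and 66.7 and 108 units in input (at least 1.69-fold lower, limma adjusted p = 0.0174). That probe set is marked x_at, a kind whose probes can also match other transcripts. Lhx1, a factor of GABAergic and Purkinje lineages, was at 87.2 and 24.1 units in TRAP, against 382 and 156 units in input (-2.41 ± 1.05 log2 units, limma adjusted p = 0.175). The fractions of none of these 3 Lhx genes overlapped, which also held for 75.9% of all genes above background (23.6% with TRAP below input). All 3 met the background rule through input alone. Lhx3, Lhx4, Lhx5, Lhx6 and Lhx8 were not above background.

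Iroquois genes, which pattern the neural plate and keep territories apart, split into those with clear separation and those with wide spread. Irx5 (Entrez gene 54352) was at 18.7 and 12.7 units in TRAP, against 130 and 91.5 units in input, at least 2.18-fold lower (-2.82 ± 0.35 log2 units on the deposited values, limma adjusted p = 0.0256). Irx1 (Entrez gene 16371) was at 35.0 and 25.7 units in TRAP, against 89.1 and 119 units in input, at least 2.06-fold lower (-1.78 ± 0.28 log2 units on the deposited values, limma adjusted p = 0.0398). Both genes were below background on both TRAP arrays and above it on both input arrays. Irx3 was at 599 and 160 units in TRAP, against 661 and 307 units in input, and Irx2 at 148 and 41.8 units in TRAP, against 149 and 52.6 units in input. The fractions of Irx2 and Irx3 overlapped, with log2 fold changes of -0.17 and -0.54 and standard errors of 1.10 and 1.02.

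Factors of GABAergic and ventral territories had negative log2 fold changes that missed the threshold. Gata2, a selector of midbrain GABAergic neurons, was at 132 and 32.4 units in TRAP, against 203 and 150 units in input (-1.42 ± 0.96 log2 units, limma adjusted p = 0.313). Gata3, which acts in the same neurons and in serotonergic neurons of the raphe, was at 21.0 and 8.87 units in TRAP, against 141 and 59.4 units in input, at least 1.83-fold lower (limma adjusted p = 0.0972). Nkx2-2, a factor of the ventral neural tube and of the oligodendrocyte lineage, was at 97.7 and 26.5 units in TRAP, against 230 and 148 units in input (-1.86 ± 0.92 log2 units, limma adjusted p = 0.211). Nkx6-2, known from myelinating oligodendrocytes, was at 227 and 59.8 units in TRAP, against 280 and 287 units in input (-1.28 ± 0.89 log2 units, limma adjusted p = 0.324). In each of these 4 genes both TRAP arrays lay under both input arrays, with TRAP replicate 2 the closer one. TRAP lay under input in this way in 23.6% of all genes above background, and the fractions were apart in either direction in 75.9%. Gata2, Gata3 and Nkx2-2 met the background rule through input alone, so the rule itself weighs on their order.

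Dlx1, Six3, Six4 and Pax7 had negative log2 fold changes that missed the threshold as well. Dlx1, a factor of forebrain GABAergic interneurons, was at 32.4 and 6.15 units in TRAP, against 103 and 117 units in input, at least 2.20-fold lower (limma adjusted p = 0.142). Six3, a factor of the anterior forebrain and eye, was at 106 and 22.6 units in TRAP, against 219 and 629 units in input (-2.92 ± 1.25 log2 units, limma adjusted p = 0.171). Six4 was at 40.2 and 24.6 units in TRAP, against 73.2 units on both input arrays (at least 1.46-fold lower, limma adjusted p = 0.0852). Pax7, a marker of dorsal midbrain, was at 64.1 and 53.3 units in TRAP, against 77.7 and 69.3 units in input (-0.33 ± 0.15 log2 units, limma adjusted p = 0.180). None of these fractions overlapped, which also held for 75.9% of all genes above background (23.6% with TRAP below input). The 4 values of Pax7 lay close to background. Dlx1, Six3 and Six4 met the background rule through input alone.

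The 2 Hox genes above background pointed in opposite directions. Hoxa5 was at 105 and 74.3 units in TRAP, against 59.2 units on both input arrays (0.58 ± 0.23 log2 units, limma adjusted p = 0.155), and its probe set, marked x_at, is of a kind whose probes can also match other transcripts. The other Hoxa5 probe set was below background on every array, at 8.52 and 6.92 units in TRAP and 17.0 and 4.84 units in input. Hoxb5 was at 78.6 and 11.5 units in TRAP, against 232 and 64.7 units in input (-2.03 ± 1.55 log2 units, limma adjusted p = 0.356). The arrays of Hoxb5 overlapped. Those of Hoxa5 did not, with TRAP above input, as in 52.3% of all genes above background.

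Where a gene above background had further probe sets above background, they pointed the same way. There were 11 such probe sets in 8 genes (Lhx1, Lhx9, Meis2, Pbx2, Pbx3, Pou3f1, Pou3f2 and Six4), all 11 with the sign of the chosen one, and 4 passed the threshold, beside 18.8% of all probe sets above background that were higher, 9.13% that were lower and 28.0% in either direction. In 3 of the 4 (those of Lhx9, Pou3f1 and Pou3f2) both arrays of a fraction held the same value, which leaves no spread in that fraction. The probe sets were measured on the same arrays and are not replicates. Further probe sets that were not above background, such as those of Hoxa5, Six3, Meis1, Pax7, Gata2 and Pou4f1, are outside this count. Those of Hoxa5, Six3 and Meis1 included ones of the opposite sign.

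The calls rested on few arrays. Pou3f1, Irx1 and Irx5 missed the threshold without any 1 of the 4 arrays (adjusted p up to 0.0968, 0.151 and 0.130 from limma). Pbx3 missed it without TRAP replicate 4, input replicate 1 or input replicate 2 (up to 0.0964), Meis3 without either TRAP replicate (0.0570 and 0.0569) and Lhx2 without either input replicate (0.0789 and 0.0803). Over all the alternatives the adjusted p ran from 0.00663 to 0.0968 for Pou3f1, 0.00561 to 0.0964 for Pbx3, 0.00162 to 0.0570 for Meis3, 0.0134 to 0.176 for Irx1, 0.00756 to 0.204 for Irx5 and 0.000489 to 0.0803 for Lhx2. The direction of these 6 genes stayed the same throughout.

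Dopamine lineage factors, set beside the regional factors, were mostly higher in TRAP. Of 11 above background, 8 were higher and 0 lower in the limma fit, with a median log2 fold change of 3.55, and at an unadjusted p under 0.05 there were 10 higher and 1 lower. Of all genes above background 18.7% were higher and 6.87% lower at the adjusted threshold, and 27.8% and 10.8% at the unadjusted one. The difference between the lists was not tested. En1, which maintains midbrain dopamine neurons, was at 1213 and 1161 units in TRAP and below background in input (at least 23.7-fold higher, limma adjusted p = 0.00494). Pitx3 was at least 4.24-fold higher (limma adjusted p = 0.000349), Foxa2 at least 15.3-fold higher (limma adjusted p = 0.00116), and Foxa1 was higher by 4.83 ± 0.58 log2 units (limma adjusted p = 0.0240). The study named several of these factors from the same arrays, so their count is not independent evidence of its direction. Of the 11, 3 were higher without either TRAP array, 5 without input replicate 1 and 4 without input replicate 2.

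Homeobox genes outside both lists were mixed. Of 21 above background, 3 were higher and 2 lower, beside 18.7% and 6.87% of all genes above background, with a median of 0.11. Satb1, a chromatin organiser with a divergent homeodomain, was at 5830 and 8211 units in TRAP, against 732 and 1301 units in input (2.83 ± 0.45 log2 units, limma adjusted p = 0.0396). Uncx, a paired-type homeobox gene, was at 995 and 773 units in TRAP, against 83.2 and 109 units in input (3.20 ± 0.25 log2 units, limma adjusted p = 0.0106). Otx1 was at least 1.28-fold higher (limma adjusted p = 0.000647). Onecut2 was below background in TRAP and at 141 and 201 units in input, at least 3.37-fold lower (limma adjusted p = 0.00512). Without any 1 of the 4 arrays 1 of the 21 was higher.

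Regional factors of other protein classes had a median near that of the 27 genes. Of 19 above background, 1 was higher and 4 lower, beside 18.7% and 6.87% of all genes above background, with a median log2 fold change of -1.33. Zic1, a zinc finger factor of the dorsal neural tube, was at 1872 and 1379 units in TRAP, against 8037 and 8028 units in input (-2.32 ± 0.20 log2 units, limma adjusted p = 0.0137). Zic5 was at least 2.72-fold lower (limma adjusted p = 0.0266) and Neurod2, a factor of excitatory forebrain neurons, at least 2.98-fold lower (limma adjusted p = 0.0143). Zic5, Neurod2, Tal1 and Tcf7l2 are among those of the 19 that met the background rule through input alone. The rule weighs on their sign, so the median of the 19 is a description, as is that of the 27. Foxp4 was higher, at 549 and 431 units in TRAP and 99.2 and 101 units in input (2.28 ± 0.16 log2 units, limma adjusted p = 0.00927). Without input replicate 1 or input replicate 2, none of the 19 passed in either direction.

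Proteins known to partner with TALE, LIM, Gata or sine oculis factors split evenly in sign. Of 16 above background 8 were positive and 8 negative, and the median log2 fold change was -0.13. At the threshold 3 were higher and 1 lower, close to the shares of all genes above background (18.7% and 6.87%). The higher genes were Lmo4 (2.77 ± 0.17 log2 units, limma adjusted p = 0.00728) and Lmo3 (1.86 ± 0.11 log2 units, limma adjusted p = 0.00664), LIM-only proteins that bind Ldb1, and Ssbp2, a single-stranded DNA-binding protein of the same complex (1.71 ± 0.31 log2 units, limma adjusted p = 0.0485). Lmo4 was at 900 and 1145 units in TRAP, against 156 and 141 units in input. Ldb2, a relative of Ldb1, was lower, at 465 and 392 units in TRAP, against 728 and 709 units in input (-0.75 ± 0.12 log2 units, limma adjusted p = 0.0378). Without any 1 of the 4 arrays 1 of the 16 was higher. Gata partner Tal1, which did not pass, was at 56.3 and 15.8 units in TRAP, against 194 and 154 units in input. The lists share genes: Tal1 and Zfpm2 are also counted among the regional factors of other protein classes. Pknox1 and Pknox2 are also counted among the homeobox genes outside both lists.

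**Figure D4:**
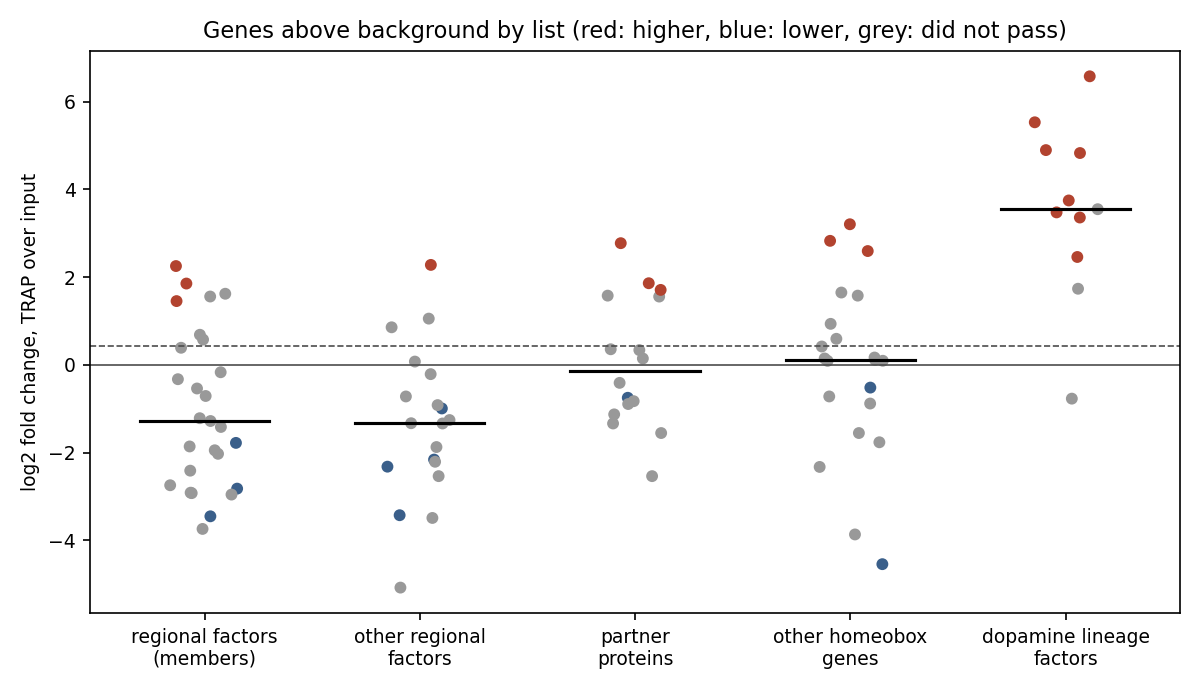
TRAP over input as a log2 fold change, 1 point per gene above background in 5 lists, with red points for genes higher in TRAP, blue for lower, grey for those that missed the threshold and bars for list medians. The median is -1.28 for the 27 regional factors and 3.55 for the 11 dopamine lineage factors, and the dashed line is that of all genes (0.44). Pknox1, Pknox2, Tal1 and Zfpm2 stand in more than 1 list.

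The TRAP pools differed in how much of the regional factors they held. In all 19 genes with a negative log2 fold change TRAP replicate 2 was above TRAP replicate 4, by 0.27 to 2.78 log2 units with a median of 1.82. Over all 3422 genes above background with a negative log2 fold change, 60.5% were higher on TRAP replicate 2 and the median was 0.14. The 8 genes with a positive log2 fold change differed by -0.57 to 0.50, with 3 of them higher on TRAP replicate 2. More than 1 log2 unit separated the TRAP arrays in 13 of the 27 genes, all higher on replicate 2, beside 4.80% of all genes in this direction and 1.78% in the other. The values of the TRAP arrays enter both the sign of the fold change and this difference, so it is a description.

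Markers of other cells ran with it. All 9 oligodendrocyte markers were higher on TRAP replicate 2, with a median of 1.64, as were 8 of 9 astrocyte markers (0.82), 6 of 7 GABAergic markers (1.19), 5 of 6 endothelial and mural markers (1.25) and both microglia markers above background (0.61). None of the 8 dopamine neuron markers was, with a median of -0.33. The summed level of the dopamine markers was 154243 and 192515 units in TRAP and 19063 and 14824 units in input. Their part in the values of the regional factors was not tested. Without TRAP replicate 2 the median log2 fold change of the 27 was -2.00, and without TRAP replicate 4 it was -0.41.

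Input pools differed in some factors as well. Gata3, Hoxb5, Irx2, Irx3, Lhx1 and Meis2 were more than 1 log2 unit higher on input replicate 1, by up to 1.84 for Hoxb5, and Six3 was lower there by 1.52. Hoxb3, at 134 and 30.8 units on input replicates 1 and 2, and Hoxc4, at 146 and 22.5 units, were also higher on replicate 1. So was Tph2, the enzyme of serotonin synthesis in raphe neurons, at 604 and 69.3 units on these arrays. Of the 6 serotonergic and cholinergic markers listed, 5 were measured and Tph2 alone was above background, with a summed level of 362 and 354 units in TRAP and 729 and 95.6 units in input. Tcf7l2, a factor of thalamus that shares no family with these genes, was at 979 units on input replicate 1 and 3460 on input replicate 2. The part of these differences in the comparison was not tested.

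**Figure D5:**
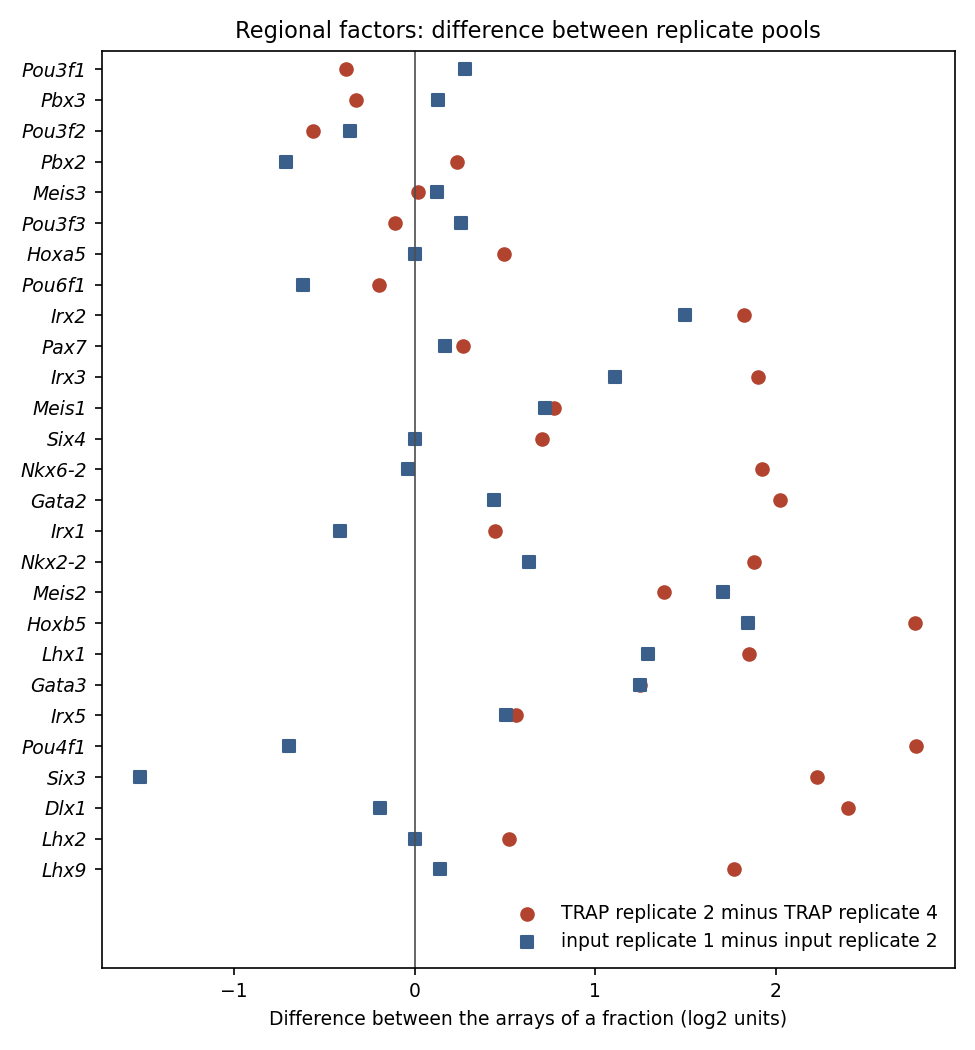
Difference between the arrays of a fraction in log2 units for the 27 regional factors, ordered by log2 fold change, with red circles for TRAP replicate 2 minus replicate 4 and blue squares for input replicate 1 minus replicate 2. From Irx2 downwards every red circle lies to the right of 0, up to 2.78 for Pou4f1.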

How the data were processed

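RNA from pools of 5 mice was amplified in 2 cycles and hybridized to Affymetrix mouse expression arrays, 2 for TRAP and 2 for input. The authors processed the arrays in R with GCRMA (version not given in the sources used here), and the log2 values they deposited, 1 for each probe set and array, were used as given. No further normalization was applied. Many dim probe sets hold the same value on both arrays of a fraction, which makes their p-values too small, and genes were counted only above 50 units. This does not remove all such cases: 1 of the 6 members that passed (Lhx2) had identical input values. Array number limits the precision.

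The file holds 45101 probe sets, and its 64 control probe sets were not tested. Genes were named from the platform annotation, and all 103 members matched a RefSeq table (GRCm38.p6) by gene identifier with 0 symbols changed. The fractions were set against each other in limma 3.58.1 under R 4.3.3 (empirical Bayes, 2-sided, Benjamini-Hochberg over 45037 probe sets, threshold 0.05, prior degrees of freedom 0.317, residual 2). The fit was tested on simulated data. Every member above background is named, with up to 4 genes of each comparison list that passed with the largest change. Tcf7l2, Tal1, Tph2, Hoxb3, Hoxc4 and Lhx6 were named after their values were seen. Members and lists were chosen with earlier results of these data known. Alternatives were quantile normalization, centring on bright probe sets (50 units or more throughout), a fit of probe sets above background, values raised to 50, an intensity trend, controls kept, a threshold of 0.01, a background of 100 units, averaging a gene's probe sets, and each array left out.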

Additional observations from a re-analysis of the deposited data

How the results depend on the processing

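No paired analysis was possible because TRAP and input share only 1 replicate number, which gives 1 pair at most. As reported, 3213 probe sets above background were higher in TRAP and 1559 lower, and 3 members were higher and 3 lower. With values under 50 units raised to 50, 824 probe sets and 1 member (Meis3) were higher, 467 probe sets were lower, and the median log2 fold change of the members was -0.71. Of the 3 members lower under this setting, 1 (Lhx2) was among those reported. Pbx3 and Pou3f1 kept their log2 fold changes there, and what they lost was significance, through the fit and adjustment over all probe sets. At a threshold of 0.01, 944 probe sets and 1 member were higher, and 632 and 1 lower. Centring gave 3745 probe sets and 5 members higher, and 3867 and 8 lower. A fit of probe sets above background gave 5 members higher and 5 lower, with 3968 probe sets higher and 1972 lower, and an intensity trend gave 6 members higher, with 4377 probe sets. A background of 100 units gave 1006 probe sets and 0 members lower. With each array left out, where the lone array of a fraction is taken to vary like the other fraction, the probe sets higher ranged from 1340 to 2652 and those lower from 842 to 1313, the members higher from 1 to 2 and lower from 0 to 5, and the members' median from -2.00 to -0.41. Without TRAP replicate 2, 1 of the 3 reported members stayed higher, and without TRAP replicate 4, 0.

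Of single members, Pou6f1 turned to -0.10 after quantile normalization and to -0.021 after centring, Irx2 to 0.74 without TRAP replicate 4 and 0.58 without input replicate 1, and Irx3 to 0.41 and 0.014 under these settings, while without TRAP replicate 2 they were at -1.08 and -1.49. No other member above background changed sign under the alternatives run. The cause of these changes was not tested, and levels near 50 units limit Pax7, Hoxa5, Six4 and Meis3.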
